A study of Rattus norvegicus with 8 samples.

Results

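The miR-146 family of the rat was described in prostatic urethral tissue after laser injury. Its members were the array entries whose names begin with rno-miR-146a or rno-miR-146b, which were 4 of the 758 rat miRNAs on the array and 8 of its 1806 probes. They were rno-miR-146a-5p, rno-miR-146b-5p and the 3p arms of the same paralogs, miR-146a and miR-146b, written below without the species prefix. The family was selected on these same arrays, because miR-146b-5p had differed between the groups, so the group values of its members are given as a description and without a test. Both 5p arms were detected on all 8 arrays, and both 3p arms on 0.

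The tissue came from male Sprague Dawley rats of 10 to 12 months, 5 days after surgery, a time the study places midway through wound repair. TULP stands for transurethral laser prostatectomy, which was simulated in 1 group by vaporizing the lining of the prostatic urethra with a thulium laser. Sham rats had the abdomen opened, received no laser and were sampled at the same place. There were 4 rats a group with 1 array each, and no engineered allele or drug treatment is named for either group. Group names follow the sample titles, whose wording for the TULP group is trauma tissue, and the source name and treatment labels also say trauma. The descriptions of those same samples name a sham operation, and the files do not settle this conflict.

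miR-146a and miR-146b are known as brakes on innate immune signalling. NF-kB, a transcription factor switched on by Toll-like receptors and the interleukin-1 receptor, raises transcription of the miR-146a gene. The mature miRNA represses the messenger RNAs of IRAK1 and TRAF6, signalling proteins through which the same receptors reach NF-kB. miR-146b comes from a separate gene and shares the target repertoire set by the seed, the stretch near the 5′ end that pairs with a messenger RNA. miR-146b is also known to respond to other signals, STAT3 and interleukin-10 among them. In wounds, such brakes act in leukocytes and in resident epithelial and stromal cells alike, and whole-tissue RNA does not separate these sources. A lower or higher signal in such tissue cannot be told apart as a change in the number of cells of a type or as a change in RNA per cell.

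The mature sequences are shown because they set what a probe can distinguish. They were taken from RefSeq (build GRCr8), whose table matched 685 of the 758 array miRNAs by name, and capitals mark the seed, bases 2 to 8:
miR-146a-5p: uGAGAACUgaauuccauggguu
miR-146b-5p: uGAGAACUgaauuccauaggcugu
miR-146a-3p: aCCUGUGAaguucaguucuuu
miR-146b-3p: cCUAGGGAcucaguucuggug

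miR-146a-5p (22 bases) lies at chr10:28350053-28350074 on the minus strand, within a long noncoding RNA gene, LOC134480673. miR-146b-5p (24 bases) lies at chr1:255144874-255144897 on the plus strand, within the protein-coding gene C1h10orf95. The miR-146a-3p arm lies at chr10:28350019-28350039 and the miR-146b-3p arm at chr1:255144914-255144934. The 5p arms share the seed GAGAACU, which 2 rat mature miRNAs in the RefSeq table held, these paralogs themselves. From the 5′ end their first 17 bases were identical, and 20 of 22 compared positions were. The differences, counted from the 5′ end with the miR-146a-5p base first, were G18A and U21C, and miR-146b-5p ended with 2 further bases, GU. The 3p arms were identical at 6 of 21 positions and did not share a seed, and no other rat miRNA in the table carried either 3p seed.

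Each arm had a longer and a shorter probe, which differed by 1 base at the end that reaches toward the seed. The 5p probes are printed 5′ to 3′ as they pair with the miRNA. Capitals mark the bases without a standard pair (A with T or U, G with C) on the other paralog:
miR-146a-5p, shorter probe: aAccCatggaattcagttc
miR-146a-5p, longer probe: aAccCatggaattcagttct
miR-146b-5p, shorter probe: ACaGccTatggaattcagtt
miR-146b-5p, longer probe: ACaGccTatggaattcagttc

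The miR-146a-5p probes, of 19 and 20 bases, covered its bases 4 to 22 and 3 to 22. Set against miR-146b-5p, each kept 2 mismatches, and the longest uninterrupted run of pairing was 14 bases for the shorter and 15 for the longer. The miR-146b-5p probes, of 20 and 21 bases, covered bases 5 to 24 and 4 to 24. Against miR-146a-5p each had 2 mismatches by standard pairing and 2 bases that hang past the end of the miRNA. The longest run of standard pairs was 13 bases for the shorter and 14 for the longer. At these mismatches probe T faced G18 and probe G faced U21, pairs that can form in a weaker way and were not counted. The miR-146a-5p probes instead set C against A18 and A against C21 of miR-146b-5p. The counts of mismatches and runs therefore do not show equal discrimination in both directions. The discriminating bases therefore all lay toward the 3′ end of the miRNAs, and no probe paired with the whole seed.

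Probes on this array were 10 to 23 bases long with a median of 16, and 25.5% of the rat probes were no longer than the 14 bases that the shorter miR-146a-5p probe could pair with miR-146b-5p. For the run of 15 this share was 38.7%, and for the run of 13 it was 14.5%. These shares count lengths alone, and the files hold no measurement of how much of one paralog a probe of the other captures. Outside the family, 0 probes held a run of 12 or more bases complementary to either 5p arm. The only probes that did were the 2 of the other paralog. In the build rn4 that the files use, the longer miR-146a-5p probe was mapped to chr10:28476387-28476405 and the longer miR-146b-5p probe to chr1:251558065-251558084.

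**Figure D1:**
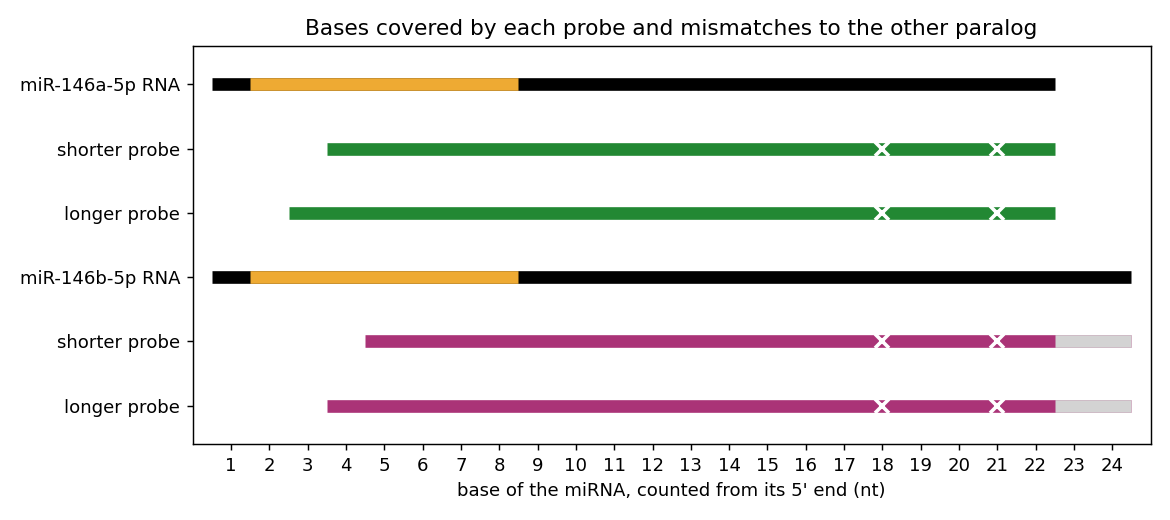
Bases of miR-146a-5p and miR-146b-5p covered by each of their probes, counted in nucleotides from the 5′ end of the miRNA. Black and orange bars are the miRNAs, with the seed in orange, coloured bars are the probes, white crosses are mismatches to the other paralog and pale ends are the 2 bases that overhang it. Mismatches, counted by standard pairing, stand at bases 18 and 21, and the stretch from the seed to base 17 is free of them.

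The signal of a miRNA was the sum of its probes whose total signal exceeded 3 times the error that the scanner software gives. Before any normalization, the signal of miR-146a-5p on the sham arrays 1 to 4 was 20.1, 35.1, 23.5 and 35.04, in the units of the array. On the TULP arrays 1 to 4 it was 29.5, 31.1, 21.7 and 24.0. The groups overlapped throughout, with means of 28.4 ± 7.77 (SD, n = 4) and 26.6 ± 4.48 (SD, n = 4), and the ratio of the means was 0.934.

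For miR-146b-5p the unnormalized signal was 5.44, 13.1, 10.69 and 20.5 on the sham arrays. It was 52.6, 63.2, 67.9 and 44.2 on the TULP arrays. Every TULP array lay above every sham array, the means were 12.4 ± 6.24 (SD, n = 4) and 57.0 ± 10.6 (SD, n = 4), and the ratio of the means was 4.58. miR-146b-5p was dimmest on sham replicate 1, and there 1 of its 2 probes passed detection. The sum of both probes on that array was 8.0. The total that the file stores for miR-146b-5p on this array was 25.6, which equals the 5.44 of its detected probe plus the 20.1 of miR-146a-5p there. Every other stored value of the 5p arms equalled the rebuilt one to the digits printed here.

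After quantile normalization, miR-146a-5p stood at 4.35, 4.90, 4.35 and 4.71 on the log2 scale in the sham group and at 5.02, 5.17, 4.78 and 4.90 in the TULP group. The means were 4.58 ± 0.27 and 4.97 ± 0.17 (SD, n = 4), the groups overlapped, and the difference, TULP minus sham, was 0.39 with an SE of 0.16 (1.31-fold). This direction depended on the scaling, since the difference was -0.071 without normalization and -0.30 when arrays were scaled to the spiked-in labelling controls. No direction is therefore given for miR-146a-5p.

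Normalized miR-146b-5p stood at 2.18, 3.67, 3.30 and 3.91 in the sham group and at 5.89, 6.24, 6.604 and 5.94 in the TULP group. The means were 3.26 ± 0.77 and 6.17 ± 0.33 (SD, n = 4), and the groups did not overlap. The difference was 2.90 with an SE of 0.38 (7.49-fold), against 2.33 on unnormalized values and 2.10 with spike-in scaling. It kept its direction under each scaling run. Without sham replicate 1 the normalized difference was 2.56.

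**Figure D2:**
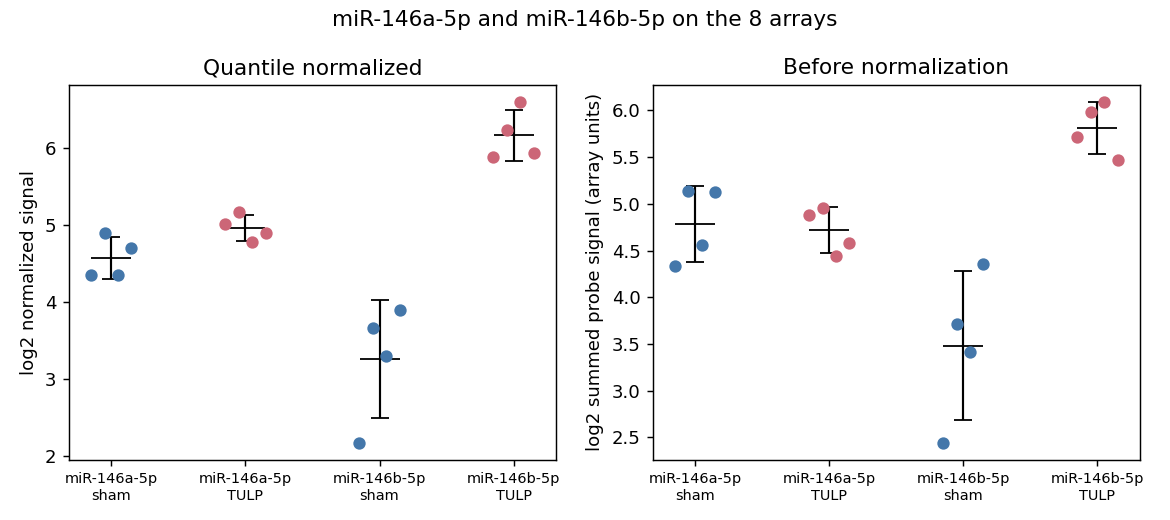
Log2 signal of miR-146a-5p and miR-146b-5p on 4 sham (blue) and 4 TULP (red) arrays, quantile normalized on the left and before normalization on the right. Points are arrays, and black bars are the mean and SD (n = 4). The TULP arrays of miR-146b-5p lie above its sham arrays on both panels, while the groups of miR-146a-5p overlap and their order of means, 4.58 and 4.97 after normalization, turns before it.

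Within each array, the place among 758 miRNAs ordered by signal (1 is the brightest) moved as follows. miR-146a-5p held places 82, 68, 82 and 73 in the sham rats and 65, 60, 71 and 68 in the TULP rats. miR-146b-5p held places 137, 102, 113 and 95 in the sham rats and 49, 44, 38 and 48 in the TULP rats. Quantile normalization gives the same value to the same place, which is why sham replicates 1 and 3 have equal miR-146a-5p values.

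Of the 151 miRNAs detected on at least 4 arrays, the difference of miR-146b-5p ranked 2 from the top and that of miR-146a-5p ranked 34. The median difference of all 151 was -0.02, with quartiles of -0.52 and 0.25. A miRNA was called at a Benjamini-Hochberg adjusted p under 0.05 in limma with a change of more than 2-fold. By this rule 9.27% of the tested miRNAs were called, 5.3% higher and 3.97% lower in the TULP group, and 29.1% had groups that did not overlap. Among the 2 tested members, 1 was called, miR-146b-5p. This count follows from how the family was chosen and is read no further.

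The change of one paralog was then set against that of the other on each array. Levels were not compared between them, since their probes differ. On the normalized log2 scale, miR-146b-5p minus miR-146a-5p was -2.18, -1.23, -1.05 and -0.80 on the sham arrays. The same quantity was 0.87, 1.07, 1.82 and 1.04 on the TULP arrays. The zero of this quantity has no meaning, and its change between groups was 2.51 with an SE of 0.37 (5.71-fold). Any factor that multiplies a whole array leaves this quantity as it is, and on unnormalized values its change was 2.40 with an SE of 0.30 (5.28-fold). The sham and TULP values did not overlap on either scale.

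The arrays shared 1 slide and 1 scan but occupied 2 rows of the slide. In the row with 3 sham arrays and 1 TULP array, miR-146b-5p differed by 2.89. In the row with 1 sham array and 3 TULP arrays, it differed by 2.34. The corresponding values for miR-146a-5p were 0.36 and 0.28 on the normalized scale, on which its sign was not stable.

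The same pattern was read probe by probe. The longer miR-146b-5p probe gave 5.44, 8.86, 6.97 and 13.3 in the sham rats and 35.6, 41.7, 47.0 and 30.1 in the TULP rats, before normalization. Its lowest signal was 4.34 times its error. The shorter miR-146b-5p probe gave 2.56, 4.28, 3.72 and 7.17 in the sham rats and 17.0, 21.5, 20.9 and 14.1 in the TULP rats. Its value on sham replicate 1 was 2.22 times its error, below the limit of detection. Neither probe's groups overlapped, and their normalized differences were 2.71 with an SE of 0.23 for the longer and 2.48 with an SE of 0.24 for the shorter, against 2.22 and 2.13 before normalization.

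The longer miR-146a-5p probe gave 15.4, 27.4, 18.4 and 27.1 in the sham rats and 23.0, 24.7, 16.8 and 18.1 in the TULP rats. The shorter gave 4.73, 7.68, 5.11 and 7.95 in the sham rats and 6.50, 6.42, 4.87 and 5.89 in the TULP rats. Both overlapped between groups. Their normalized differences were 0.47 (SE 0.16) and 0.16 (SE 0.16), and their unnormalized differences were -0.071 and -0.075. Group means of the longer miR-146a-5p probe were 22.1 and 20.7, while those of the longer miR-146b-5p probe were 8.64 and 38.6. With arrays scaled to the 75th percentile, the miR-146a-5p probes differed by 0.58 and 0.57, so their direction too depended on the scaling.

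The probes differed in how far they stood above background. Each was printed as 8 spots per array, 64 in all, and 0 of them were saturated. All 64 spots of the longer miR-146a-5p probe were well above background, but 25 of its shorter probe were, 20 of 32 in the sham group and 5 of 32 in the TULP group. The longer miR-146b-5p probe had 57 such spots. For the shorter miR-146b-5p probe there were 8 of 32 in the sham group and 32 of 32 in the TULP group. The sham values of miR-146b-5p thus rest mainly on its longer probe. The median spread between spots of a probe on an array was a coefficient of variation of 6.25% and 17.6% for the longer and shorter miR-146a-5p probes, and 9.66% and 12.1% for those of miR-146b-5p.

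**Figure D3:**
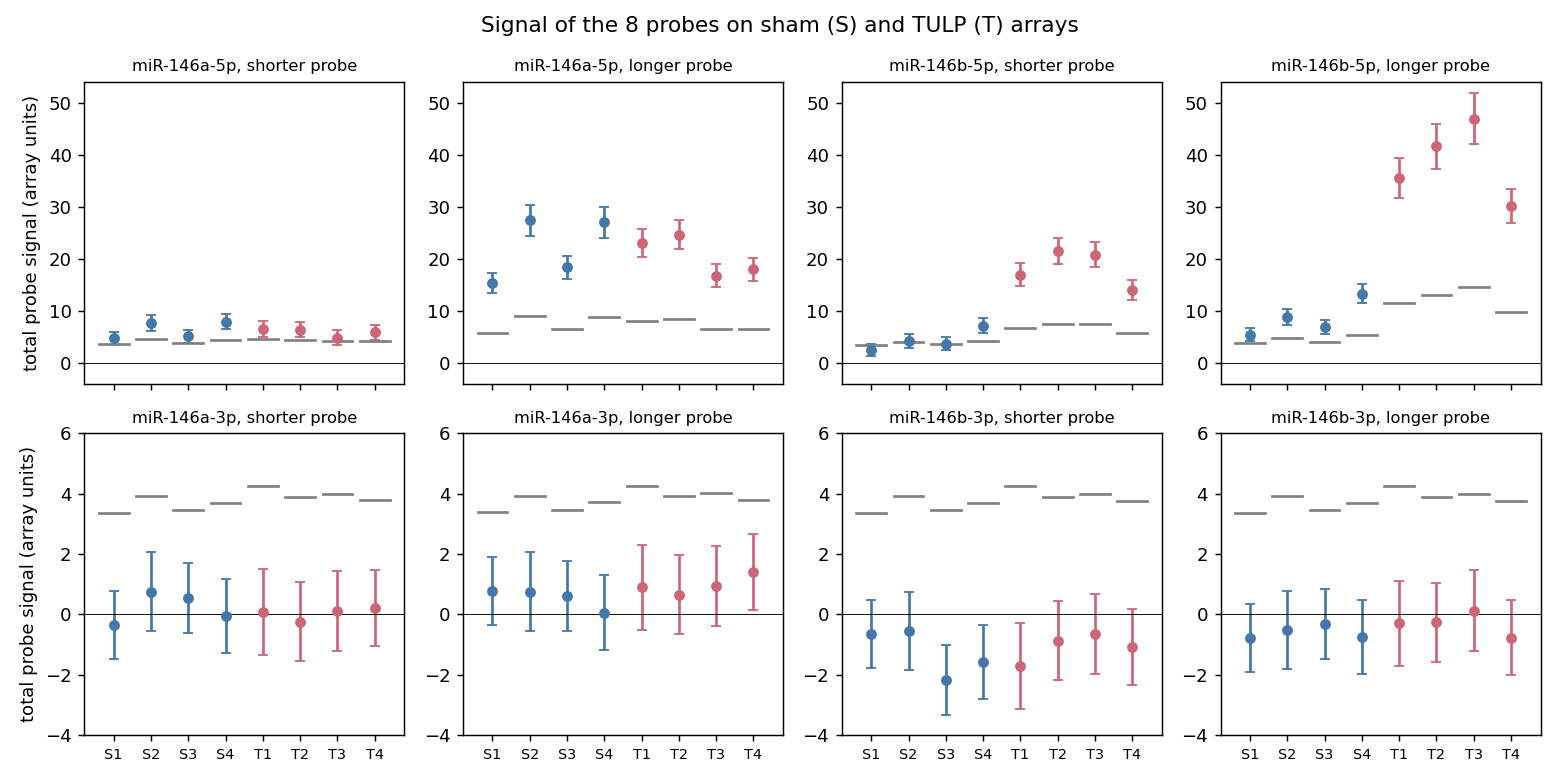
Unnormalized total signal of the 8 probes of the family on sham arrays 1 to 4 (S, blue) and TULP arrays 1 to 4 (T, red), in array units, with the error given by the scanner software. Grey lines mark 3 times that error, the limit of detection, and the lower panels have a narrower axis. Both miR-146b-5p probes are higher on every TULP array, those of miR-146a-5p overlap, and the 3p probes stay under the limit on all 8 arrays.

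The ratio of a miRNA's longer to its shorter probe was a measure that the choice of the family had not used directly. It is built from the same probe signals. For miR-146b-5p its log2 was 1.09, 1.05, 0.91 and 0.89 in the sham rats and 1.07, 0.96, 1.17 and 1.096 in the TULP rats. The means were 0.98 ± 0.10 and 1.07 ± 0.09 (SD, n = 4), a difference of 0.09 (two-sided exact permutation test over 70 labellings, p = 0.2, adjusted over 2 ratios 0.4). For miR-146a-5p the means were 1.79 ± 0.07 and 1.79 ± 0.14 (SD, n = 4), and the difference of 0.004 gave an exact permutation p of 0.971 (adjusted 0.971). The smallest p this design allows is 0.0286.

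As ratios, the longer probe of miR-146b-5p was 1.86 to 2.25 times its shorter probe, and that of miR-146a-5p was 3.07 to 3.85 times. The ranges of the paralogs did not overlap. The miR-146b-5p ratio on sham replicate 1 includes the undetected shorter probe. On sham replicates 2 and 3 that probe stood at 3.11 and 3.07 times its error, just above the limit of detection. Leaving sham replicate 1 out gave differences of 0.12 for miR-146b-5p (exact permutation p = 0.143) and -0.02 for miR-146a-5p (exact permutation p = 0.743) over 35 labellings. A difference in probe ratio between the groups was not detected for either paralog, which does not show that there was none.

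The 3p arms, the strands opposite the 5p arms in each hairpin, had no measurable signal. Their 4 probes gave signals of -2.18 to 1.40, at most 1.11 times their error, where a signal of 3.37 to 4.25 was needed for detection. Of their spots 0 were well above background. Their level is therefore known only to lie under that limit in both groups, and no fold was computed.

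The 5 miRNAs whose normalized pattern over the 8 arrays was most like each paralog were found among 149 others, by Pearson's r. These r values describe arrays that share the group difference and the normalization, and they carry no test. For miR-146b-5p they were miR-15b-5p (r = 0.96), miR-199a-5p (0.94), miR-20a-5p (0.94), miR-21-5p (0.94) and miR-223-3p (0.93). Their own TULP-minus-sham differences were 0.96, 0.60, 1.08, 1.76 and 2.10. With each group's mean removed, r was 0.62, 0.84, 0.69, 0.20 and 0.35 in the same order. The value for miR-21-5p rests on the sham arrays, since its TULP values were all equal.

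For miR-146a-5p the most alike were miR-494-3p (r = 0.89), miR-199a-5p (0.83), miR-93-5p (0.82), miR-27a-3p (0.81) and miR-500-3p (0.80). With each group's mean removed these r values were 0.77, 0.62, 0.65, 0.59 and 0.64. miR-199a-5p was the 1 miRNA among the nearest to both paralogs.

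Around the family, 15 miRNAs linked to NF-kB were listed by role. Of these, 13 were detected on at least 1 array and 12 were tested, where 3 passed as higher and 1 as lower, against the 5.3% and 3.97% of all tested miRNAs given above. By the adjusted p alone, 5 were higher and 1 lower, where 13.9% of all tested miRNAs were higher and 16.6% lower by that rule. The median difference of the 12 was 0.42, beside -0.02 for all 151. The list was assembled with results of these arrays known, so its counts are not independent evidence. The 1 lower miRNA, miR-181b-5p, entered the fit through its sham arrays alone.

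Among the miRNAs known to be induced by NF-kB or endotoxin, miR-21-5p, which represses the inflammatory regulator PDCD4, rose. It stood at 9.54, 10.10, 9.80 and 9.42 on the sham arrays and at 11.48 on all 4 TULP arrays, where it was the brightest miRNA and so took the top value that normalization allows. The groups differed by 1.76 (SE 0.15, limma adjusted p = 0.000785). miR-221-3p, which represses the cell cycle inhibitor p27, was 1.71, 0.96, 3.09 and 0.96 in the sham group and 3.19, 4.03, 3.16 and 3.09 in the TULP group, where 0.96 is the floor given to undetected miRNAs. Its groups met at 3.09, they differed by 1.69 (SE 0.50, limma adjusted p = 0.0379), and 16 of 20 alternative settings lost the call. Without sham replicate 2 its adjusted p was 0.0979 and without TULP replicate 2 it was 0.0965.

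miR-155-5p, the NF-kB-induced miRNA usually set against miR-146 because it promotes inflammatory signalling, was detected on 1 sham array and 3 TULP arrays. Its values were 0.96, 2.28, 0.96 and 0.96 in the sham group and 0.96, 2.97, 2.66 and 2.11 in the TULP group, and its difference of 0.89 (SE 0.50) did not pass (limma adjusted p = 0.236). Without TULP replicate 1, on which it was undetected, the difference was 1.29 with an adjusted p of 0.0404. miR-125b-5p, which represses the messenger RNA of TNF, differed by -0.00033 with an SE of 0.12, but by -0.84 without normalization and -1.07 with spike-in scaling. miR-212-3p, a CREB-responsive miRNA, differed by -0.26 with an SE of 0.40. Its cluster partner miR-132-3p was detected on 2 TULP arrays and 0 sham arrays and was not tested, and miR-9a-5p and miR-222-3p were detected on 0 arrays.

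Among the miRNAs known to act on NF-kB components, miR-223-3p, abundant in neutrophils and monocytes and a repressor of IKK-alpha and NLRP3, rose. It stood at 3.98, 4.03, 3.98 and 4.03 in the sham group and at 5.35, 6.56, 6.50 and 6.02 in the TULP group, which differed by 2.10 (SE 0.26, limma adjusted p = 0.00313). The groups did not overlap. miR-15b-5p differed by 0.96 (adjusted p = 0.0032) and miR-199a-5p, a repressor of IKK-beta, by 0.60 (adjusted p = 0.0257), and both fell short of a 2-fold change. Without normalization their adjusted p was 0.281 and 0.61, and with spike-in scaling 0.603 and 0.758. miR-16-5p (0.24), miR-301a-3p (0.24) and miR-10a-5p (-0.056) did not pass.

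miR-181b-5p, which represses importin-alpha3, a carrier of NF-kB into the nucleus, was the member of the list that fell. It was detected on 4 of 4 sham arrays, at 1.06, 2.66, 2.33 and 2.50, and on 0 of 4 TULP arrays. It thus met the filter of at least 4 arrays through the sham group alone, and its TULP values were all set to the floor. The limma adjusted p of 0.0336 from that fit is therefore read no further. The sham mean was 1.65-fold above the lowest detected signals of the TULP arrays, which averaged 1.42 on the log2 scale. Those signals belong to other miRNAs and set no ceiling for an undetected one, so no least fold is given. The 2-fold change that the call requires rests on the floor of 0.96, and sham replicate 1 lay below that average of 1.42. Unnormalized sham signals were 3.799 to 6.78, close to the limit of detection, and 7 of 16 alternative settings lost the call. Without TULP replicate 2, 3 or 4 its adjusted p was 0.094, 0.0597 and 0.0877.

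**Figure D4:**
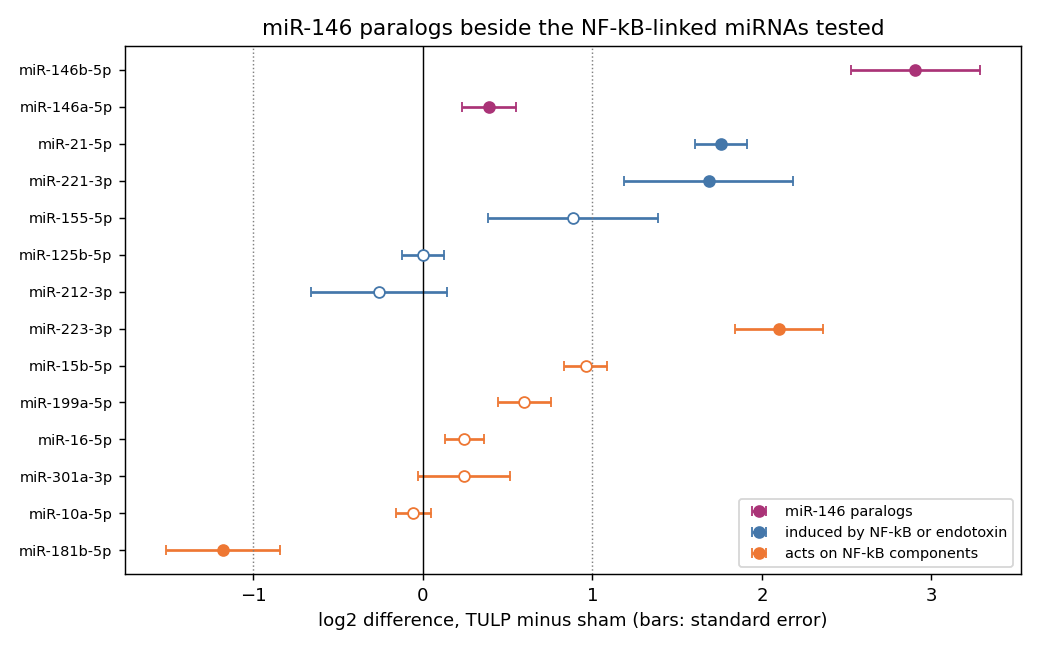
Normalized log2 difference, TULP minus sham, of the miR-146 paralogs (purple) and the 12 tested NF-kB-linked miRNAs, those induced by NF-kB or endotoxin in blue and those acting on NF-kB components in orange. Bars are standard errors of the limma fit, filled blue and orange points passed the call rule, and dotted lines mark a 2-fold change. miR-146b-5p (2.90) lies beyond each listed miRNA, while miR-146a-5p (0.39) lies near the list's median of 0.42, with a sign that turns to -0.071 without normalization.

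Marker miRNAs were listed for the cells this tissue holds. The summed signal of 6 leukocyte markers was 5.84 to 6.33 on the log2 scale in the sham group and 6.57 to 7.32 in the TULP group, with no overlap. On the TULP arrays miR-223-3p, at 5.35 to 6.56, was the brightest marker in that sum. Of 5 tested, miR-223-3p and miR-142-3p were called higher, where 5.3% of all tested miRNAs were. miR-150-5p was lower by -0.59 without overlap (limma adjusted p = 0.0737), and 29.1% of all tested miRNAs had groups that did not overlap. miR-342-3p (0.13, limma adjusted p = 0.561) and miR-155-5p (0.89, limma adjusted p = 0.236) did not pass, and miR-142-5p was detected on 0 arrays. miR-142-3p, found in blood cells of most lineages, differed by 2.01 (limma adjusted p = 0.0163). It was detected on 4 TULP arrays, enough for the filter, but on 2 sham arrays. Sham replicates 1 and 4 were set to the floor of 0.96, so the size of this difference rests partly on the floor. The part of leukocyte number in the miR-146b-5p difference was not tested.

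The epithelial markers, the miR-200 family and miR-205, were all detected on all 8 arrays, summed to 8.89 to 9.37 in the sham group and 8.59 to 9.85 in the TULP group, and 0 of 6 were called. In the TULP group 4 of them were lower and 2 higher, with a median difference of -0.63 beside -0.02 for all tested miRNAs. The largest difference was that of miR-200c-3p, -1.46 (limma adjusted p = 0.0753). The sum rests mainly on miR-200b-3p, which was 9.29 on TULP replicate 1 and 8.01 to 8.08 on the other TULP arrays. Striated muscle markers summed to 11.98 to 12.47 and 11.37 to 12.18, with 0 of 4 called and 3 lower by the adjusted p alone, a rule by which 16.6% of all tested miRNAs were lower. miR-499-5p, the marker of slow and cardiac muscle among them, was detected on 0 arrays. Smooth muscle markers summed to 9.34 to 9.86 and 9.31 to 10.36, and the endothelial marker miR-126a-3p stood at 6.85 to 7.25 and 6.85 to 7.10. Epithelial and muscle markers were thus present in both groups, as the labelled tissue holds. Their part in the results was not tested.

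The arrays also differed in brightness. The summed signal of detected miRNAs was 21075 to 37357 on the sham arrays and 16787 to 19464 on the TULP arrays, and 156 miRNAs at most and 136 at least were detected on an array. Without normalization the median difference of all tested miRNAs was -0.55 and with spike-in scaling -0.78. Relative to those medians miR-146a-5p lay above the median miRNA under each of these scalings. The calls then split into 5 higher and 29 lower without normalization and 5 higher and 48 lower with spike-in scaling, where the main setting gave 8 higher and 6 lower.

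**Figure D5:**
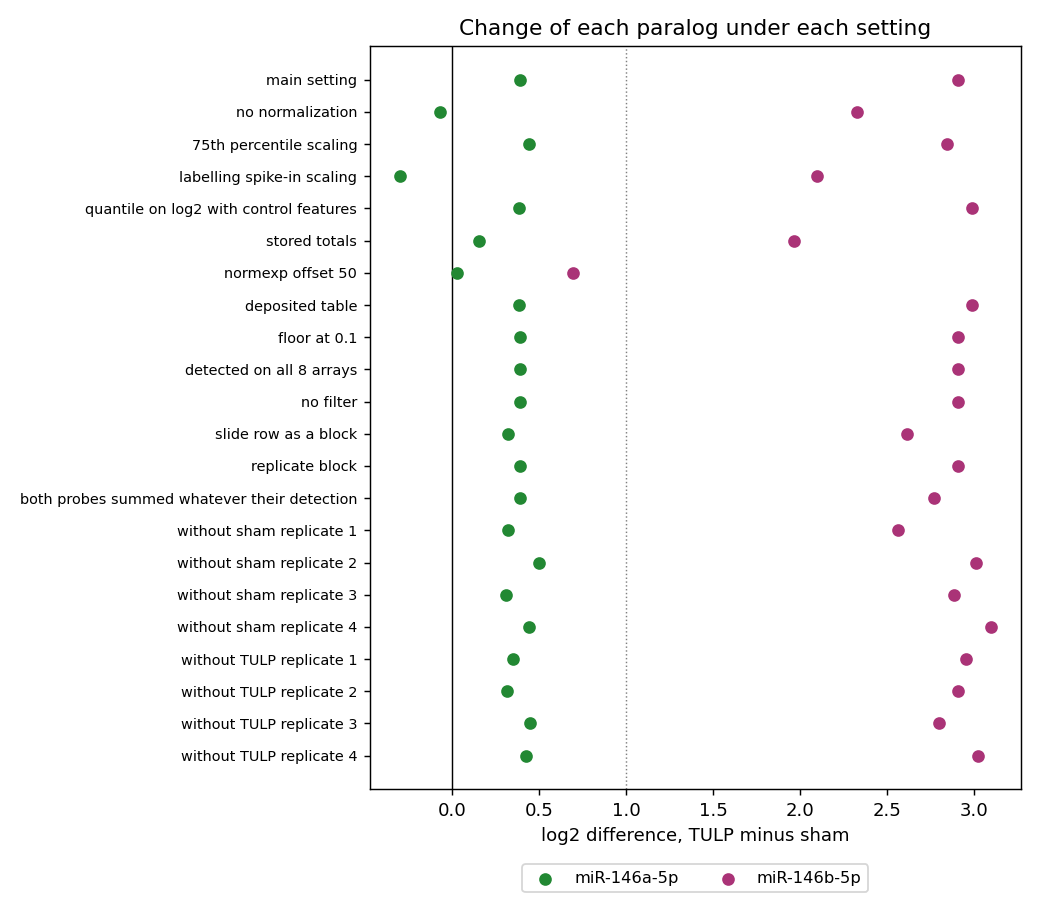
Log2 difference, TULP minus sham, of miR-146a-5p (green) and miR-146b-5p (purple) under the main setting and each alternative named on the left. Points are group differences, the solid line is no difference and the dotted line a 2-fold one. miR-146b-5p stays above 2-fold in 20 of 21 alternatives, down to 0.69 with normexp and an offset of 50, and miR-146a-5p lies between -0.30 and 0.50. The alternatives in floor, filter and replicate block could not move either value.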

How the data were processed

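Total RNA from the prostatic urethra of 8 rats was labelled with 1 dye and hybridized to 1-colour Agilent rat miRNA arrays. Per the labels, the labelling kit was one for cRNA. The authors read the images with Agilent Feature Extraction 10.7.1.1, and the deposited scanner files hold spot intensity on a linear scale, background subtracted and not normalized between arrays, with a total signal and error per probe. Deposited detection calls (0 or 1, other values) served as a check on the calls rebuilt here. Spot flags for saturation and for signal well above background were taken as deposited. A deposited table gives quantile-normalized log2 values of 780 features, made by the authors. Its median was -3.32 in each column, the log2 of the value for undetected miRNAs, and it was used as an alternative.

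Here the signal of a miRNA was the sum of its probes above 3 times their error, or 0.1 where no probe passed, which matched the deposited calls with 0 mismatches. Signals of 758 rat miRNAs were quantile normalized, raised to a floor of 1.94 (0.96 in log2, the median over arrays of the lowest detected signal) and converted to log2. The 151 miRNAs detected on at least 4 arrays entered lmFit and eBayes with group as the single term (limma 3.58.1, R 4.3.3), a procedure tested on simulated data. Probes were fitted likewise (251 tested, floor 2.11). The number of arrays, 4 per group, limits the precision.

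The members, lists and alternatives were chosen with earlier results of these data known. Named were the members, miRNAs sharing their seeds, the NF-kB-linked list, the marker lists, and the 5 tested miRNAs with the highest Pearson's r to each detected member. Names and sequences came from RefSeq and from the scanner files. The alternatives covered scaling, signal, floor, filter, blocks, the methods' t-test and leaving out each array. Promoters and target sites were not analysed here.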

Additional observations from a re-analysis of the deposited data

Results flagged for a closer look

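Among the miRNAs named here, 42 groups of 4 arrays were checked for a single array far from the others, and 4 had one. Chance flags about 5% of groups where values are not tied. That share does not hold where 3 values are equal, since the remaining array is then flagged whatever its distance. Normalized miR-155-5p was 2.28 on sham replicate 2, with the other sham arrays at the floor. miR-221-3p was 4.03 on TULP replicate 2, above the other TULP arrays. miR-199a-5p was 3.16 on sham replicate 1, below the other sham arrays. miR-10a-5p was 6.98 on sham replicate 2, above 3 equal values. Neither miR-146a-5p nor miR-146b-5p had such an array in either group.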

How the results depend on the processing

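The miR-146b-5p difference kept its direction in 21 of 21 alternatives and exceeded 2-fold in 20. It was 2.10 with spike-in scaling, 1.97 with the totals stored in the files, which differ from the rebuilt signal on sham replicate 1 (25.6 against 5.44), and 0.69 with normexp and an offset of 50, which adds a constant to every spot, and it ranged from 2.56 to 3.10 when 1 array was left out. Summing both probes whatever their detection, an alternative chosen after seeing the data, gave 2.77. miR-146a-5p was 0.16 with stored totals, 0.027 with normexp, -0.071 without normalization and -0.30 with spike-in scaling, and 0.31 to 0.50 with 1 array left out. The change of miR-146b-5p minus that of miR-146a-5p was 1.81 with stored totals and 0.67 with normexp, and 2.24 to 2.65 with 1 array left out. Without normalization the longer and shorter miR-146a-5p probes turned to -0.071 and -0.075 and the longer miR-146b-5p probe gave 2.22. Scaling to the 75th percentile moved the shorter miR-146a-5p probe to 0.57.

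Of the NF-kB-linked miRNAs, 4 passed in the main setting, 1 with normexp, and 2 with detection required on all 8 arrays, without a filter, with slide row as a block and with the replicate block, and 2 to 4 with 1 array left out. Counts of all calls went from 14 to 34 without normalization, 53 with spike-in scaling, 1 with normexp, 8 with detection on all 8 arrays and 4 without a filter, and 9 (without TULP replicate 3) to 21 with 1 array left out. The methods' t-test on the deposited table called 17 unadjusted and 13 after Benjamini-Hochberg. The split of calls, 8 higher and 6 lower, was 5 and 7 with stored totals, 6 and 8 in the deposited table, 6 and 7 with the floor at 0.1, and 8 and 9 with quantile normalization on log2 values that kept the control features.

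Signs also turned for miR-212-3p (2.06 with stored totals), miR-125b-5p (0.035 with stored totals, -0.84 without normalization, -1.07 with an adjusted p of 0.00159 with spike-in scaling, -0.082 to 0.053 with 1 array left out), miR-16-5p (-0.39 without normalization, -0.62 with spike-in scaling), miR-199a-5p (-0.074 with spike-in scaling), miR-301a-3p (-0.13 without normalization, -0.36 with spike-in scaling) and miR-10a-5p (-0.67 without normalization, -0.90 with an adjusted p of 0.00916 with spike-in scaling, -0.12 to 0.00011 with 1 array left out). miR-15b-5p kept its direction but gave 0.36 without normalization and 0.13 with spike-in scaling. The cause was not tested. The replicate block left the miR-146a-5p and miR-146b-5p differences at 0.39 and 2.90. Same-numbered arrays of the groups correlated at -0.10 to 0.27 in their deviations, and 2 of 4 sham arrays correlated best with their own number. With 4 numbers, this check cannot tell whether shared replicate numbers pair the arrays. With the block, 11 miRNAs were called. For the shorter miR-146a-5p and miR-146b-5p probes and for both miR-146a-3p and miR-146b-3p, signal over background set the limit.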
